A study of Mus musculus with 46 samples.

Results

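The cells described here are 13 single cells of mouse blastocysts at embryonic day (E) 4.5, 3 labelled primitive endoderm and 10 labelled epiblast, out of 46 samples in the series and 33 samples with RNA measured. They were chosen by the labelled cell type and stage, not by any measured value. The wild-type (WT) cells were 1 primitive endoderm cell and 7 epiblast cells. The knockout (KO) cells, labelled Rbbp5KO, were 2 primitive endoderm cells and 3 epiblast cells. Rbbp5 is a shared subunit of the complexes that methylate histone H3 at lysine 4. Per the labels' protocols, Rbbp5 was disrupted at the zygote stage, either with Cas9 mRNA and a guide RNA in wild-type zygotes or with Cre mRNA in Rbbp5 flox/flox zygotes, and embryos were grown in KSOM medium. The sources used here do not tell which of these made each KO cell, and name neither the strain nor any injection of the WT embryos. The level of Rbbp5 was not analysed here, and the KO label was therefore not checked against the targeted gene in these cells. Cells were isolated with immunosurgery, in which antibody and complement lyse the outer trophectoderm, and their cDNA was made by SMART-seq2 and turned into libraries with Tn5 transposase.

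The inner cell mass of the blastocyst splits into the epiblast, which gives rise to the fetus, and the primitive endoderm, which gives rise to the parietal and visceral endoderm of the yolk sacs. FGF4 from epiblast-fated cells acts through FGF receptors and ERK signalling on their neighbours, where GATA factors and SOX17 come on and NANOG goes off. Primitive endoderm cells polarise, secrete laminin and type IV collagen into a basement membrane under the epiblast, and take up nutrients through endocytic receptors. Epiblast cells keep the pluripotency factors OCT4 (Pou5f1), SOX2 and NANOG and the NODAL coreceptor CRIPTO (Tdgf1).

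The labels name no embryo, so cells of a group may share 1 embryo and each group counted as 1 sample. No test was made, and no p-value or standard error is given. Values are FPKM, fragments scaled to transcript length and to the mapped fragments of the library, which can be set side by side between genes because they are per length. The lineage difference of a gene is its mean log2(FPKM + 1) in primitive endoderm cells minus that in epiblast cells of the same genotype. The added 1 makes this difference smaller than the true log2 fold change for genes at low FPKM. A gene was called higher in a lineage where the difference was at least 2, a 4-fold change on that scale, and every cell of that lineage lay above every cell of the other. WT epiblast values are given as the lowest, median and highest of the 7 cells, and all other cells are given singly.

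The 3 primitive endoderm cells had 3414 (WT), 3093 and 3279 (KO) genes at 1 FPKM or more. WT epiblast cells had 3878 to 4682 and KO epiblast cells 3026, 3628 and 3056. Summed FPKM over the 7182 genes of the table was 375431 in the WT primitive endoderm cell and 418092 and 434504 in the KO ones, against 212520 to 278609 in the 10 epiblast cells. The lineages did not overlap in this sum, which was higher in every primitive endoderm cell. Main counts of genes are therefore also given after each cell was scaled to the same sum, an alternative chosen after the data were seen. That scaling moved the median difference of all genes in WT from -0.20 to -0.57. The sequencing depth behind the values is unknown.

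The lineage labels were first set beside marker genes. Whether expression of such genes entered the labels was not checked here, so the markers are not an independent test of them. Of 24 primitive endoderm markers in the table, the WT primitive endoderm cell had 21 at 1 FPKM or more and the KO ones 14 each, where epiblast cells had 2 to 9. Their summed level was 4953 FPKM in the WT primitive endoderm cell, 1443 and 1737 in the KO ones and 5.34 to 146.6 in epiblast cells. Of 19 epiblast markers, epiblast cells had 11 to 19 at 1 FPKM or more and primitive endoderm cells 4 to 6. Across genes, Spearman's correlation of the KO primitive endoderm cells with the WT primitive endoderm cell was 0.566 to 0.602, and with KO epiblast cells 0.453 to 0.526. That of the WT primitive endoderm cell with WT epiblast cells was 0.496 to 0.559, at its highest close to the 0.566. These values are a description over cells that share a table and differ in unknown depth. Of 13 trophectoderm markers, 6 to 9 were at 1 FPKM or more in each cell. Their summed level was 431 FPKM in the WT primitive endoderm cell against 92.3 to 275.4 in WT epiblast cells, and 281.9 and 298.5 against 182.5 to 357.6 in KO cells. Of the 10 tested trophectoderm markers, 2 (20%) were higher in each lineage in WT and 1 (10%) in each in KO. Over all genes tested, 17.4% in WT and 14.6% in KO were higher in primitive endoderm, and 9.82% and 6.89% in epiblast. Elf5, 1 of the 13, was under 1 FPKM in all cells. The part of trophectoderm cells in the results was not tested.

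**Figure D1:**
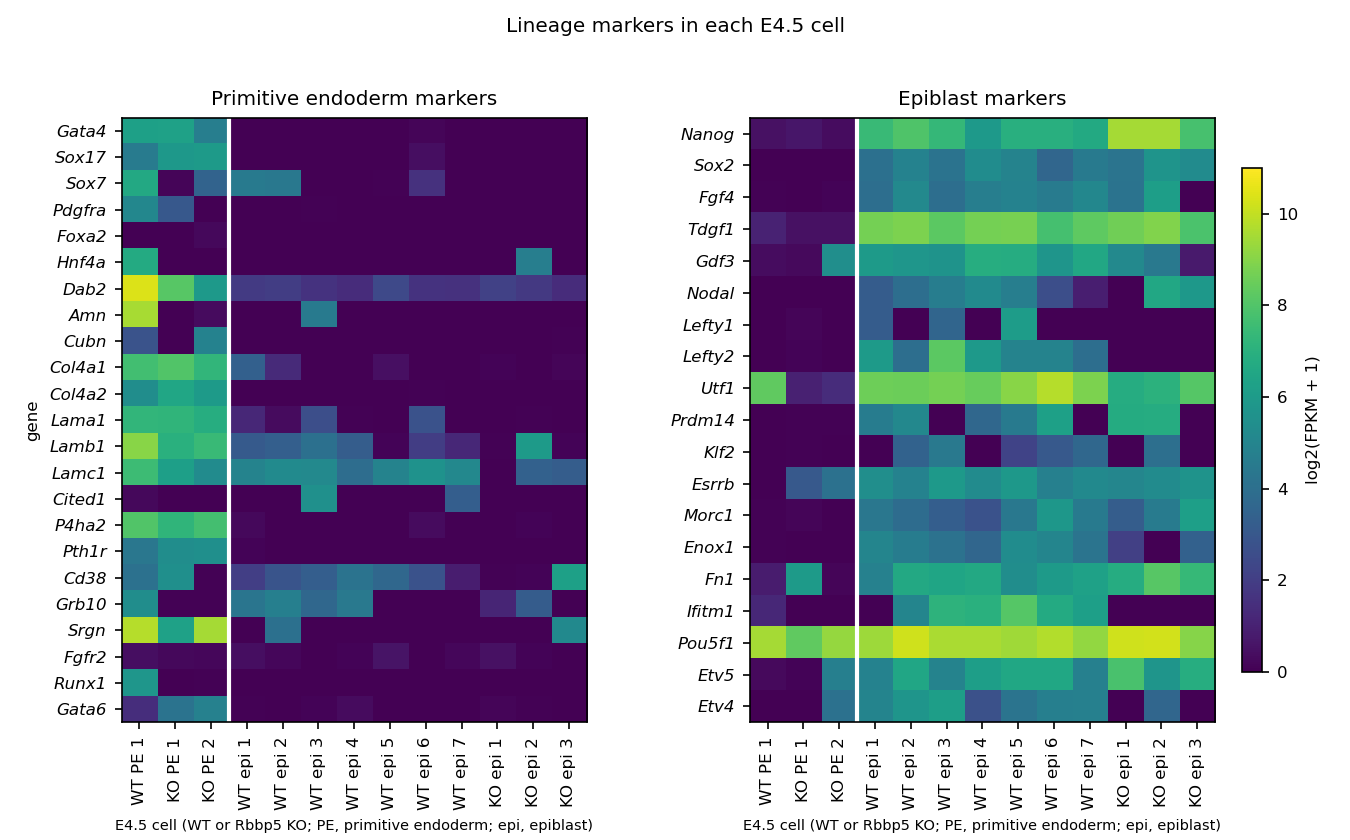
Heat map of log2(FPKM + 1) for 23 of the 24 measured primitive endoderm markers (left) and the 19 measured epiblast markers (right), 1 column per E4.5 cell and 1 row per gene, with a white line between the 3 primitive endoderm cells and the 10 epiblast cells. The primitive endoderm columns are bright for Col4a1, P4ha2, Dab2 and Gata4 and dark for Nanog, Sox2 and Tdgf1, while Pou5f1 is bright in every column and Amn, Hnf4a and Runx1 are bright in the WT primitive endoderm cell and dark in both KO ones.

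In WT cells, 1066 of 6113 genes tested (17.4%) were higher in primitive endoderm and 600 (9.82%) higher in epiblast. In KO cells, 892 (14.6%) were higher in primitive endoderm and 421 (6.89%) higher in epiblast. In both genotypes, 260 genes (4.25%) were higher in primitive endoderm, which is 24.4% of the WT and 29.1% of the KO genes. For epiblast the shared genes numbered 101 (1.65%), 16.8% of the WT and 24% of the KO genes. The excess of primitive endoderm genes depended on the scaling. With equal sums per cell, 673 genes (11%) were higher in primitive endoderm and 690 (11.3%) in epiblast in WT, 565 (9.21%) and 590 (9.62%) in KO, and 140 (2.28%) and 147 (2.4%) in both. Quantile normalization gave 779 and 486 in WT, 611 and 548 in KO and 161 and 104 in both. Median ratio scaling gave 732 and 631 in WT, 579 and 548 in KO and 155 and 131 in both. Fewer cells overlap less easily: without KO primitive endoderm cell 1 or 2 the KO counts for primitive endoderm were 1508 and 1448, and those for epiblast 647 and 706. Without KO epiblast cell 1 or 3 the KO counts for epiblast were 643 and 667. A call across the single WT primitive endoderm cell likewise rests on that 1 cell.

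**Figure D2:**
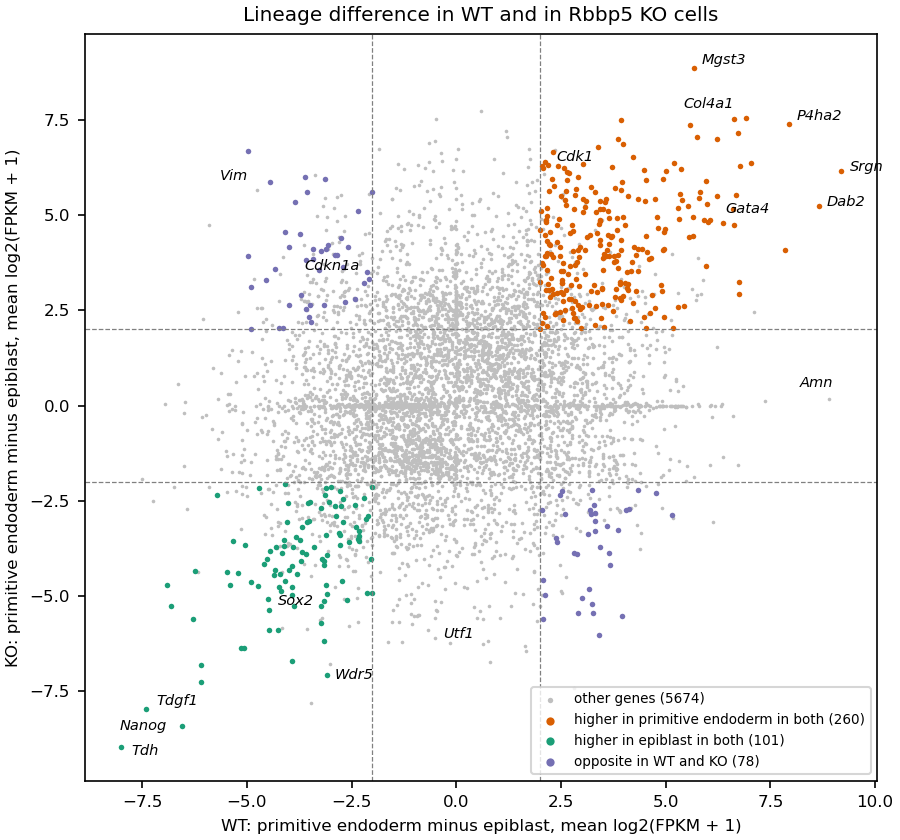
Lineage difference of each of the 6113 genes, primitive endoderm minus epiblast in mean log2(FPKM + 1), in WT cells (horizontal axis) and KO cells (vertical axis); dashed lines mark a difference of 2 either way. The 260 genes higher in primitive endoderm in both genotypes sit at the upper right with Srgn, Dab2, P4ha2 and Mgst3 at the edge, the 101 higher in epiblast in both at the lower left with Tdh, Nanog and Tdgf1, and Amn and Utf1 lie near 0 for 1 genotype only.

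Promoters of 3 genes that differed between lineages in both genotypes are printed to show what lies upstream of them, as 250 bases before the RefSeq start on GRCm38 (the same assembly as mm10), 5′ to 3′ on the gene's strand. Nanog, at chr6:122707239-122707488 on the plus strand, and Tdgf1, at chr9:110946159-110946408 on the minus strand, were higher in epiblast. P4ha2, at chr11:54100674-54100923 on the plus strand, was higher in primitive endoderm. Capitals mark matches to TTTGCAT followed by any base and ACAAT, an octamer next to a SOX element as OCT4 and SOX2 bind together, or to GGGCGTGG, a box of the KLF type.
Nanog: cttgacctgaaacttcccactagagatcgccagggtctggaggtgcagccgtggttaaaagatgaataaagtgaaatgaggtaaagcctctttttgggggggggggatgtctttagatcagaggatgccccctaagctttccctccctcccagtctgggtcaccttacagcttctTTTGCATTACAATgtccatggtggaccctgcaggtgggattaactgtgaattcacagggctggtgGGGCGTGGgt
Tdgf1: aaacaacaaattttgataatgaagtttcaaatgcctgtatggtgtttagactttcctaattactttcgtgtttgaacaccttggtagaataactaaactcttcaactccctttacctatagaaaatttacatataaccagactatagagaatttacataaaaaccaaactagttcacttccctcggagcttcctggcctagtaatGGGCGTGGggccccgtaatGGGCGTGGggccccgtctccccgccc
P4ha2: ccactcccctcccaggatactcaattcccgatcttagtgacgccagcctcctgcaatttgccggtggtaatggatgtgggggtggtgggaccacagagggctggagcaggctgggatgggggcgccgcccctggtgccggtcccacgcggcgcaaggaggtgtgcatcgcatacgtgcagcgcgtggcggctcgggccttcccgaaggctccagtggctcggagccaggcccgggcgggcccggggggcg
The octamer and SOX element starts 75 bases before this Nanog start and 151 bases before another that RefSeq lists, and the KLF-type box stands once in the Nanog window and 2 times in that of Tdgf1. Both strands were searched, together with AGATAA, a box of the GATA type, which has no match in these windows. No motif overlaps another there. Of 4745 tested genes with a promoter in the RefSeq table, 2 (0.0421%) held the octamer and SOX element, 542 (11.4%) the KLF-type box and 329 (6.93%) the GATA box. Among genes higher in epiblast in both genotypes, the KLF-type box stood in 16 of 80 promoters (20%), and among those higher in primitive endoderm the GATA box stood in 14 of 207 (6.76%). A match is a run of letters and not a measured binding site.

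Genes of the basement membrane set primitive endoderm cells apart from epiblast cells in both genotypes. Of 25 tested genes for basement membrane and collagen assembly, 12 (48%) were higher in primitive endoderm in WT, 11 (44%) in KO and 8 in both. Over all genes these shares were 17.4%, 14.6% and 4.25%. The list's median difference was 1.24 in WT and 2.39 in KO, against -0.20 and 0.04 over all genes tested. With equal sums per cell the list's counts were 9, 10 and 7, where 11%, 9.21% and 2.28% of all genes were called. Those shared 8 were Lama1, Lamb1, Lamc1, Col4a1, Col4a2, P4ha2, Plod1 and Plod2. All of them but Plod1 and Plod2 also stand in the list of primitive endoderm markers above, so the lists are not independent. Fn1, which encodes fibronectin, was higher in epiblast in both, though at -1.48 in KO without KO primitive endoderm cell 2. The only other genes of the list higher in epiblast were Col18a1 in WT and Lama5 in KO. Col4a1 (chromosome 8, 11198423 to 11312889), an alpha chain of type IV collagen, was at 201 FPKM in the WT primitive endoderm cell and at 0, 0 and 9.44 in WT epiblast cells. It was at 261 and 152 FPKM in KO primitive endoderm cells and at 0.0798, 0.0268 and 0.107 in KO epiblast cells. Its partner chain Col4a2 was at 40.6, 88.8 and 62.3 FPKM in the 3 primitive endoderm cells and at no more than 0.034 in any epiblast cell. Both chains were thus present in every primitive endoderm cell and near 0 in nearly every epiblast cell. RefSeq places starts of Col4a1 and Col4a2 on opposite strands 21 bases apart and their annotated ends overlap, so reads in the overlap could be split between them.

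P4ha2 (chromosome 11, 54100924 to 54131668), a subunit of the enzyme that hydroxylates prolines of collagen, was at 258 FPKM in the WT primitive endoderm cell against 0, 0 and 0.256 in WT epiblast cells. In KO it was at 144 and 208 FPKM against 0, 0.0914 and 0. Its difference was 7.93 in WT and 7.40 in KO, the largest smaller value of the 2 genotypes among genes higher in primitive endoderm. Lama1, the alpha chain of laminin-111, was at 149 FPKM in the WT primitive endoderm cell and 147 and 113 in the KO ones, against at most 5.79 in epiblast cells. Lamc1, the gamma chain, was less specific, since WT epiblast cells held 14.1, 33.8 and 47.5 FPKM against 184 in the WT primitive endoderm cell, and its WT difference was 1.91 with equal sums, under a call. Hs3st1, an enzyme that sulfates heparan chains, was listed at 0 in all 7 WT epiblast cells and was at 104 FPKM in the WT primitive endoderm cell and 114 and 190 in the KO ones. Serglycin (Srgn), a secretory proteoglycan, was at 874 FPKM in WT and 78.5 and 731 in KO primitive endoderm cells, with at most 36.2 in an epiblast cell.

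The transcription factors Gata4 and Sox17 were higher in primitive endoderm in both genotypes. Gata4 was at 75.1 FPKM in the WT primitive endoderm cell and 77.5 and 25.1 in the KO ones, and at most 0.0971 in an epiblast cell. Sox17 was at 23 FPKM in WT and 57.6 and 62.2 in KO primitive endoderm cells, and at most 0.345 in an epiblast cell. Both factors separated the lineages completely in each genotype. Gata6, which acts at the start of the lineage, was at 1.68 FPKM in the WT primitive endoderm cell and 17 and 27.4 in the KO ones, so it was called in KO and not in WT. Snai1, a repressor tied to the mesenchymal shift of parietal endoderm and chosen after its values were seen, was at 104 FPKM in WT and 149 and 44.4 in KO primitive endoderm cells.

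Of 22 tested primitive endoderm markers, 19 were higher in primitive endoderm in WT, 12 in KO and 11 in both, and 8 were called in WT with no call in KO. They included Sox7, Pdgfra, Hnf4a, Amn, Cubn, Grb10 and Runx1. Scaled to equal sums, the counts were 18, 12 and 10. Amn (chromosome 12, 111271096 to 111276426), the membrane anchor of the cubilin receptor that takes up vitamin B12 and proteins, was at 746 FPKM in the WT primitive endoderm cell and at 0 and 0.251 in the KO ones. WT epiblast cells held 0, 0 and 21.9 FPKM of Amn, and KO epiblast cells were listed at 0. Hnf4a, a nuclear receptor that drives visceral endoderm genes, was at 104 FPKM in the WT primitive endoderm cell and 0 and 0.0203 in the KO ones, while 1 KO epiblast cell held 24.9. The WT primitive endoderm cell was thus high in both genes and both KO ones were near 0. Runx1, a RUNT-family factor, was at 53.9 FPKM in the WT cell and 0 and 0.0508 in the KO ones. With 1 WT primitive endoderm cell, a difference between genotypes and one between single cells cannot be told apart, and no test of the difference was made.

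Among the other WT-called markers, 3 differed between the 2 KO primitive endoderm cells. Pdgfra, the PDGF receptor of the lineage, was at 32.9 FPKM in the WT cell and 7.05 and 0 in the KO ones. Sox7 was at 100 FPKM in WT and 0.126 and 10.4 in KO. Cubn, the large receptor that Amn anchors, was at 6.09 FPKM in WT and 0.0135 and 28 in KO. Each of these 3 was thus on in 1 KO cell and near 0 in the other. The endocytic adaptor Dab2, in contrast, was called in both genotypes, at 1384 FPKM in WT and 283 and 60.1 in KO primitive endoderm cells and 1.63 to 4.43 in all epiblast cells. Fgfr2 was under 1 FPKM in all 13 cells, and Foxa2 likewise.

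Of 16 listed markers of parietal endoderm, the outward-migrating derivative, 12 were in the table and 11 were tested. Of these 11, 10 (90.9%) were higher in primitive endoderm in WT, 10 (90.9%) in KO and 9 in both. Of 26 listed markers of visceral endoderm, the derivative that covers the epiblast, only 11 were in the table and 8 were tested. Of these 8, 4 (50%) were higher in primitive endoderm in WT (Amn, Cubn, Hnf4a and Podxl), 1 (12.5%) in KO (Dkk1) and none in both. Over all genes these shares were 17.4% in WT, 14.6% in KO and 4.25% in both. Without KO primitive endoderm cell 1 the KO count was 9 for parietal and 3 for visceral endoderm markers, though fewer cells overlap less easily. The lists share laminins, collagens, Amn, Cubn and Hnf4a with the marker list above. Dkk1, a secreted WNT antagonist, was at 2.81 FPKM in the WT primitive endoderm cell, 133 and 26.9 in the KO ones and listed at 0 in every epiblast cell. Pth1r, the receptor through which parathyroid hormone-related protein promotes parietal endoderm, was at 19.5 FPKM in WT and 40.5 and 43.7 in KO primitive endoderm cells against at most 0.0783 in epiblast cells.

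On the epiblast side, Nanog (chromosome 6, 122707489 to 122714633) separated the lineages in every cell. WT epiblast cells held 59.6, 121 and 253 FPKM and the WT primitive endoderm cell 0.397. KO epiblast cells held 721, 725 and 222 FPKM and KO primitive endoderm cells 0.59 and 0.303, so the difference was -6.56 in WT and -8.41 in KO. Sox2 was at 11.4, 21.6 and 39.2 FPKM in WT and at 17.8, 50.5 and 38.3 in KO epiblast cells and was listed at 0 in all 3 primitive endoderm cells. Tdgf1 (chromosome 9, 110939608 to 110946158) was at 214, 410 and 457 FPKM in WT and 391, 485 and 238 in KO epiblast cells, and at 1.08, 0.427 and 0.422 in primitive endoderm cells. The largest epiblast difference of either genotype was that of Tdh, the threonine dehydrogenase that feeds one-carbon metabolism in mouse pluripotent cells, at -8.01 in WT and -8.97 in KO. Tdh was at 303 to 658 FPKM in WT and 1185, 792 and 285 in KO epiblast cells and under 1 FPKM in each primitive endoderm cell.

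Of 19 tested epiblast markers, 13 were higher in epiblast in WT, 7 in KO and 6 in both, the last being Nanog, Sox2, Tdgf1, Morc1, Fn1 and Etv5. With equal sums per cell the counts were 13, 8 and 7. None was higher in primitive endoderm in either genotype. Pou5f1 did not separate the lineages: it was at 732 FPKM in the WT primitive endoderm cell and 322 and 616 in the KO ones, against 588, 768 and 1191 in WT and 1167, 1211 and 514 in KO epiblast cells. Utf1, a chromatin protein of pluripotent cells at chromosome 7, 139943856 to 139945112, was at 322 FPKM in the WT primitive endoderm cell and 351, 419 and 871 in WT epiblast cells. In KO it was at 1.04 and 1.66 FPKM in primitive endoderm cells against 111, 133 and 271 in epiblast cells. Utf1 was therefore called in KO, with a difference of -6.11, and not in WT, at -0.51. Esrrb was called in WT only, since KO primitive endoderm cells held 7.41 and 16.4 FPKM and the WT one was listed at 0.

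Among 12 tested core pluripotency genes, 6 (50%) were higher in epiblast in WT, 7 (58.3%) in KO and 4 in both (Sox2, Tdgf1, Rif1 and Trim28). Over all genes these shares were 9.82%, 6.89% and 1.65%. Lin28a, an RNA-binding protein that blocks let-7 and was chosen after its values were seen, went the other way in both genotypes, at 153, 56.2 and 114 FPKM in primitive endoderm cells, 0.0595, 45.6 and 68.4 in WT and at most 0.104 in KO epiblast cells. Its WT call was lost without WT epiblast cell 3, at 1.80, and with equal sums, at 1.97. Of 15 naive pluripotency genes, 5 (33.3%) were higher in epiblast in WT, 4 (26.7%) in KO and 3 in both (Nanog, Klf4 and Jam2), against the same shares over all genes. The KO difference of Klf4 was -0.90 without KO primitive endoderm cell 1. Stat3 in WT and Lifr in KO were higher in primitive endoderm, but with equal sums per cell no gene of this list was.

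Fgf4, the ligand of the lineage choice, was at 14.5, 25.3 and 35.6 FPKM in WT epiblast cells and 0.0482 in the WT primitive endoderm cell. In KO it was at 17.2, 71.5 and 0 FPKM in epiblast cells and at no more than 0.0918 in primitive endoderm cells, and the 1 epiblast cell listed at 0 kept it from a call. Of 17 FGF and ERK genes, 4 (23.5%) were higher in epiblast in WT, against 9.82% of all genes. In KO 1 (5.88%) was, against 6.89%, and the ERK target Etv5 was shared. The KO count depended on the scaling. Equal sums per cell gave 4 in WT and 4 in KO, where 11.3% and 9.62% of all genes were called. Median ratio scaling gave 4 and 3, and quantile normalization 4 and 1. Fgf3, another ligand and chosen after its values were seen, was higher in primitive endoderm in both genotypes, at 54.4 FPKM in WT and 0.0382 and 33.9 in KO, so 1 KO cell carried the KO call, and without KO primitive endoderm cell 2 the difference was 0.05. Of 18 NODAL and BMP genes, 6 (33.3%) were higher in epiblast in WT and 1 (5.56%), Tdgf1, in KO, against 9.82% and 6.89% of all genes. Equal sums gave 6 and 2, and without KO epiblast cell 1 the KO count was 3. Foxh1 went the other way in WT, at 2.37, but with equal sums 0 genes of this list were higher in primitive endoderm. Nodal was at 0.872, 14.9 and 37 FPKM in WT epiblast cells and 0, 97 and 58 in KO ones, and was listed at 0 in all 3 primitive endoderm cells. Lefty2, a NODAL inhibitor and target, was at 14.6, 29.5 and 298 FPKM in WT epiblast cells and listed at 0 in all 3 KO epiblast cells.

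**Figure D3:**
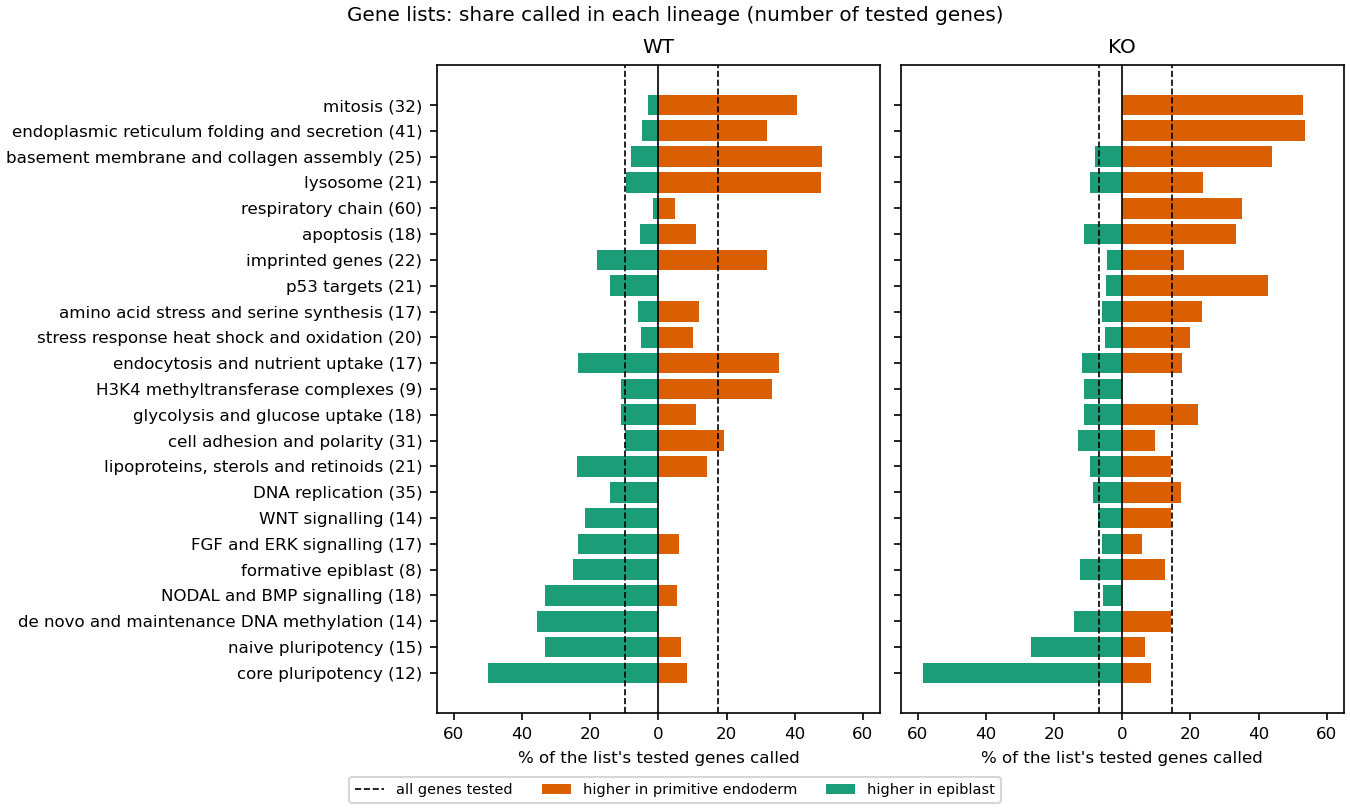
Share of the tested genes of each list called higher in primitive endoderm (right, orange) or in epiblast (left, green), in WT and KO cells, with dashed lines at the share over all 6113 genes; the number of tested genes follows each list name. Lists for mitosis, secretion, basement membrane, lysosome, endocytosis and imprinted genes exceed the dashed line on the right in both genotypes. Core and naive pluripotency do so on the left, as do several others that include DNA methylation and endocytosis. Respiratory chain and p53 target lists, among others, exceed the line on the right in KO only.

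Of 41 tested genes for folding and transport in the endoplasmic reticulum, 13 (31.7%) were higher in primitive endoderm in WT, 22 (53.7%) in KO and 9 in both, against 17.4% and 14.6% of all genes in WT and KO, and the medians were 1.53 and 2.30. The counts were 5, 12 and 3 with equal sums per cell, where 11% of all genes were higher in primitive endoderm in WT and 9.21% in KO, so the WT share was then near the background. Kdelr3, a receptor that returns proteins to the endoplasmic reticulum, was at 229 FPKM in the WT primitive endoderm cell and 0, 25.8 and 76.1 in WT epiblast cells. In KO it was at 406 and 94.1 FPKM against at most 0.144. P4hb, the disulfide isomerase that also serves the prolyl hydroxylase, was at 1253 and 924 FPKM in KO primitive endoderm cells and 68.7, 214 and 235 in KO epiblast cells, and was not called in WT, at 379 against 119, 163 and 236. Its KO difference was 1.99 with equal sums, just under a call.

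Lysosomal genes were higher in primitive endoderm more in WT than in KO by count, 10 of 21 (47.6%) against 5 of 21 (23.8%). Over all genes these shares were 17.4% and 14.6%, and the difference between WT and KO was not tested. The cathepsins Ctsl and Ctsz were called in both genotypes. Ctsz was at 292 FPKM in WT and 66.1 and 122 in KO primitive endoderm cells and at most 23.2 in an epiblast cell. Ctsl was at 1225 FPKM in the WT primitive endoderm cell against 25.9, 34.1 and 71.3 in WT epiblast cells, and at 624 and 1671 against 253, 366 and 91.1 in KO. Ctsa and Hexa were called in WT and not in KO. The KO call of Ctsl was lost with equal sums, at 1.49, and without KO primitive endoderm cell 2, at 1.61, or KO epiblast cell 3. Hexa was at 145 FPKM in the WT primitive endoderm cell and 6, 29.3 and 134 in WT epiblast cells, but at 595, 730 and 250 in KO epiblast cells against 419 and 748. Its WT call was lost with equal sums, at 1.65, and without WT epiblast cell 1 or 6, at 1.92 and 1.97. Of 17 genes for endocytosis and nutrient uptake, 6 (35.3%) were higher in primitive endoderm in WT and 3 (17.65%) in KO. Among all genes 17.4% and 14.6% were. On the epiblast side they numbered 4 (23.5%) and 2 (11.8%), against 9.82% and 6.89%. With equal sums per cell, 5 in WT and 2 in KO were higher in each lineage. Dab2 and the tetraspanin Cd63 were higher in primitive endoderm in both genotypes. Rab5c was higher in epiblast in both genotypes, at -4.90 in WT and -4.64 in KO. The transferrin receptor Tfrc, chosen after its values were seen, was higher in epiblast in both, at 5.68, 34.5 and 123 FPKM in WT epiblast cells against 0.162, though its KO difference was -1.23 without KO epiblast cell 2.

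Of 32 tested mitosis genes, 13 (40.6%) were higher in primitive endoderm in WT, 17 (53.1%) in KO and 9 in both, against 17.4% and 14.6% of all genes in WT and KO, and the medians were 1.76 and 3.15. The kinase gene Ttk, chosen after its values were seen, was called in opposite directions, at 0.515 FPKM in the WT primitive endoderm cell against 5, 12.7 and 29 in WT epiblast cells, and 76 and 40.6 against 0, 0 and 27 in KO. After scaling to equal sums, 9, 12 and 6 were higher in primitive endoderm, and the KO call of Ttk was lost. Cdk1, the kinase that drives entry into mitosis, was at 907 FPKM in the WT primitive endoderm cell against 146, 197 and 283 in WT epiblast cells. In KO it was at 930 and 1484 FPKM against 80.8, 0.331 and 27.9. Its WT difference was 2.20, and 1.56 with equal sums, under a call. Its cyclin Ccnb1 was at 951 FPKM against 29.1, 130 and 199 in WT, and at 359 and 1475 against 20.4, 109 and 122 in KO. All 3 primitive endoderm cells were above all 10 epiblast cells for both genes. The other 7 shared genes were Cdc20, Plk1, Aurka, Bub1, Kif20a, Ube2c and Nuf2. The KO call of Aurka was lost without KO epiblast cell 1, at 1.69, and the WT call of Kif20a without WT epiblast cell 3, at 1.57. With equal sums Bub1 lost its KO call and Kif20a its calls in both genotypes. Of 35 tested DNA replication genes, none was higher in primitive endoderm in WT and 6 (17.1%) were in KO, against 17.4% and 14.6% of all genes. On the epiblast side they numbered 5 (14.3%) in WT and 3 (8.57%) in KO, against 9.82% and 6.89%.

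**Figure D4:**
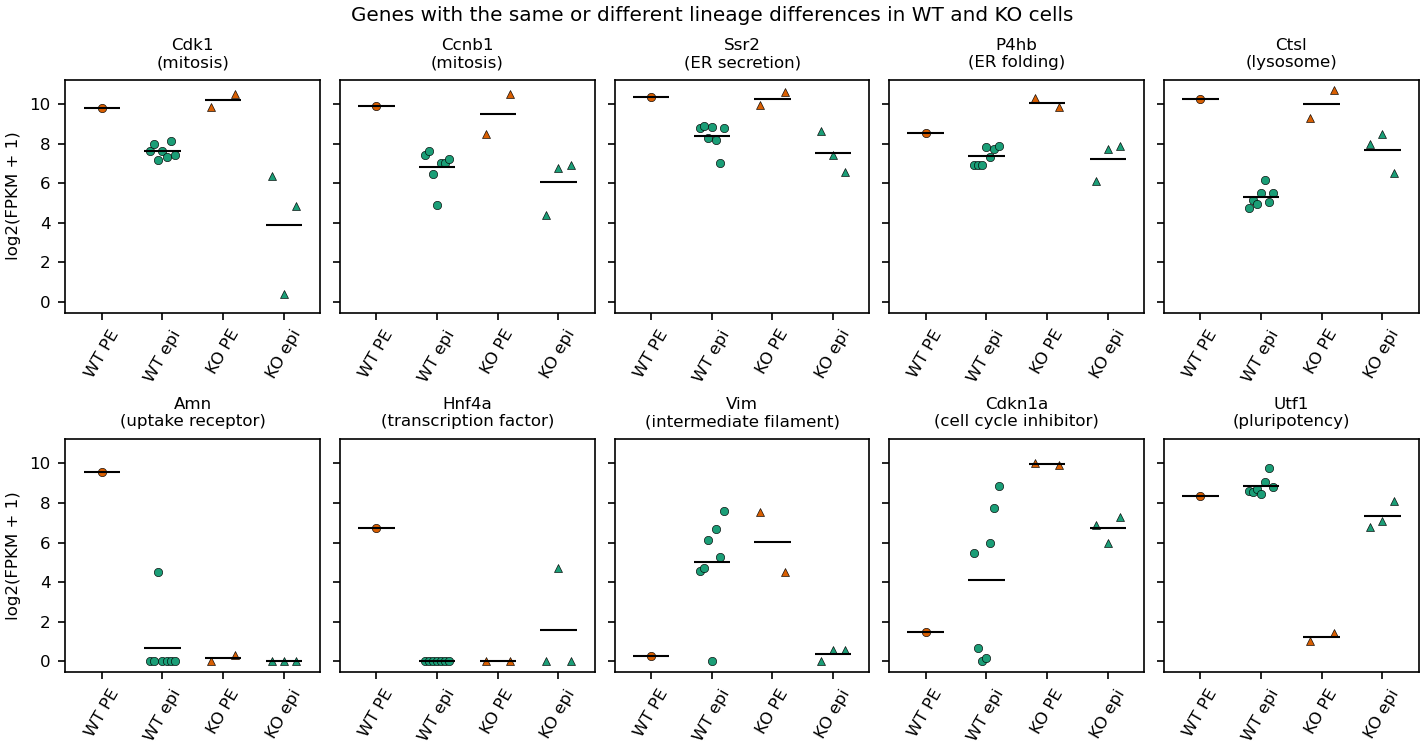
log2(FPKM + 1) of 10 genes in each cell of the 4 groups, with primitive endoderm in orange and epiblast in green, WT as circles and KO as triangles, and a bar at each group's mean. Cdk1, Ccnb1 and Ctsl separate the lineages in both genotypes, Amn and Hnf4a are high in the WT primitive endoderm cell alone among primitive endoderm cells, and Vim, Cdkn1a and Utf1 differ between WT and KO primitive endoderm cells.

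Of 60 respiratory chain genes, 21 (35%) were higher in primitive endoderm in KO and 3 in WT, with medians of 1.60 and 0.50, and none was called in both. Of all genes that averaged 100 FPKM or more, 26.8% were higher in KO primitive endoderm, so the list's share was not far above that of other abundant genes. Equal sums per cell gave 7 and 0, where 9.21% and 11% of all genes were called. Uqcrq, a complex III subunit chosen after its values were seen, was at 710 and 1169 FPKM in KO primitive endoderm cells against 65.9, 114 and 80.3 in KO epiblast cells. Of 21 p53 targets, 9 (42.9%) were higher in primitive endoderm in KO, against 14.6% of all genes, and none in WT, against 17.4%. On the epiblast side they numbered 1 (4.76%) in KO and 3 (14.3%) in WT, against 6.89% and 9.82%. With equal sums, 6 in KO and 0 in WT were higher in primitive endoderm, where 9.21% and 11% of all genes were called. Cdkn1a, the p21 inhibitor of cyclin-dependent kinases, was at 1026 and 972 FPKM in KO primitive endoderm cells and 117, 63 and 156 in KO epiblast cells. In WT it was at 1.82 FPKM in the primitive endoderm cell and at 0, 43.3 and 462 in epiblast cells. Mdm2, the ubiquitin ligase of p53 and chosen after its values were seen, was at 261 and 101 FPKM against 42.5, 42.9 and 8.61 in KO. The call of Mdm2 was lost with equal sums, at 1.80, and without KO primitive endoderm cell 1 or KO epiblast cell 3, at 1.95 and 1.90.

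Of 9 tested genes of the H3K4 methyltransferase complexes, 3 (33.3%) were higher in primitive endoderm in WT and none in KO, against 17.4% and 14.6% of all genes. With equal sums per cell or a pseudocount of 5 the WT count was 0, and it was 1 with quantile or median ratio scaling. Wdr5, a partner of Rbbp5 in those complexes, was higher in epiblast in both genotypes. Wdr5 was at 15 FPKM in the WT primitive endoderm cell against 81.9, 142 and 202 in WT epiblast cells, and at 0.259 and 0.905 against 227, 200 and 197 in KO. Of 14 tested DNA methylation genes, 5 (35.7%) were higher in epiblast in WT, against 9.82% of all genes, and none in primitive endoderm. In KO, 2 (14.3%) were higher in epiblast, against 6.89%, and 2 (14.3%) in primitive endoderm (Dnmt3a and Tdg), against 14.6%. The 5 in WT were the maintenance methyltransferase Dnmt1, its recruiter Uhrf1, Hells, Setdb1 and Trim28, and of these Trim28 was shared with KO. Equal sums per cell gave 6 in WT and 2 in KO for epiblast, and 0 and 1 for primitive endoderm. Dnmt3l, which stimulates the de novo methyltransferases, was at 159 and 94.7 FPKM in KO primitive endoderm cells and 0.763, 0.357 and 208 in KO epiblast cells, and was not called. Trim28, the corepressor that protects methylation at imprinted loci, was higher in epiblast in both genotypes, at 38.9 FPKM against 127, 413 and 888 in WT and 0.0256 and 35.1 against 345, 523 and 178 in KO.

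In opposite directions, 78 genes (1.28%) were called, 36 (0.589%) higher in primitive endoderm in WT and in epiblast in KO, and 42 (0.687%) the reverse. This count was 182 and 164 without KO primitive endoderm cell 1 or 2, and 119, 119 and 130 without KO epiblast cell 1, 2 or 3. Polr1e, a subunit of RNA polymerase I, was at 0.151 FPKM in the WT primitive endoderm cell against 7.87, 39.4 and 82.6 in WT epiblast cells, and at 45.1 and 228 in KO primitive endoderm cells against 0 in all 3 KO epiblast cells. Mcts2, an imprinted retrogene inside an intron of H13, was listed at 0 in the WT primitive endoderm cell and was at 83.9 and 45.7 FPKM in the KO ones. Fbxl5, the iron-sensing part of a ubiquitin ligase, was at 112 FPKM in the WT primitive endoderm cell and listed at 0 in both KO ones, against 89.9, 180 and 15.5 in KO epiblast cells. Vimentin (Vim) had the same pattern as Polr1e but overlapped in WT, where epiblast cells held 0, 38.1 and 191 FPKM, the primitive endoderm cell 0.184 and KO primitive endoderm cells 185 and 21.6. No test of these differences between genotypes was made.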

How the data were processed

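RNA was measured in 13 single E4.5 cells by SMART-seq2, per the labels' protocols. The authors deposited FPKM values in a table of 7186 lines, and 20 columns of embryo libraries in it were not used here. Per the submitters' processing notes, reads were handled against mm10 with tools that include STAR 2.7.3 and Trim Galore 0.6.4. Those notes also list MACS2 2.2.6, HOMER 4.10.4, Bowtie2 2.3.5 and Bismark, and tie no tool to a data type. The sources used here do not state whether counting used strand. For 2 gene names standing more than once, 4 lines were left out, leaving 7182 genes. The 6113 with a mean of at least 1 FPKM over the cells were compared as log2(FPKM + 1), within genotype, with pandas 2.3.3 and numpy 2.4.6 in Python 3.11.15. Ratios of low FPKM values between cells were searched for steps of single fragments. The commonest ratio held 4.6% to 17.02% of the genes low in both cells, so whole reads were not recovered and no count test was run. The code was tested on simulated data.

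Named genes were the 12 each way largest in both genotypes, the 8 each way per genotype with at least 20 FPKM on average in the higher group, the 5 each way most opposite, all measured lineage markers and the 4 highest members of each of 29 lists, without predicted, pseudogene, small RNA, ribosomal protein, Y-linked and Xist names. Some of them are not described, and 1 marker counted in its list is not reported here. The cells, lists and rules were chosen with earlier results of these data known. Positions are from RefSeq on GRCm38, in which 6834 genes matched a single symbol. Alternatives were pseudocounts of 0.1 and 5, a filter at 5 FPKM or none, quantile and median ratio scaling, the log ratio of mean FPKM, 2-fold and 8-fold minimums, no overlap rule and leaving out each cell. Scaling each cell to the same sum was added after the data were seen.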

Additional observations from a re-analysis of the deposited data

Results flagged for a closer look

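Some values stood far from the rest of their group, measured as the gap of the highest or lowest of the 7 WT epiblast cells to the next cell against the whole range of the group. Chance alone does this in about 1 of 20 groups, and sparse single-cell values with many zeros do it more easily. Among primitive endoderm genes, a lone WT epiblast cell held Amn at 21.94 FPKM (cell 3), Srgn at 15.84 (cell 2), Fgf3 at 10.41 and Col4a1 at 9.437 (both in cell 1), and Plod2 at 5.752 (cell 2). Lamc1 was lowest at 14.1 FPKM in cell 4. Other lone values were under 1 FPKM: Sox17 at 0.3449, Gata4 at 0.09706, Col4a2 at 0.03401 and Cubn at 0.01918 in cell 6, Gata6 at 0.2507 in cell 4 and Pth1r at 0.0783 in cell 1.

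WT epiblast cell 3 was the lowest for 5 genes: Aurka and Cdc20 were listed at 0, Mdm2 was at 0.07659 FPKM, Kif20a at 0.07065 and Lin28a at 0.05947. In WT epiblast cell 4, Vim was listed at 0.

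For 4 of the genes described in the report, every primitive endoderm cell lay on one side of the epiblast cells in WT and on the other side in KO. The KO minus WT gap between lineage differences in log2(FPKM + 1) was 11.64 for Polr1e, 10.31 for Mcts2, 7.288 for Ttk and -9.415 for Fbxl5. These differences between genotypes were not tested, and the WT side rests on 1 primitive endoderm cell.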

How the results depend on the processing

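No paired analysis was possible because no label ties a cell to an embryo and no result comes from a test. Counts of genes are given in the order higher in primitive endoderm in WT, in KO and in both, higher in epiblast in WT, in KO and in both, and opposite. With a pseudocount of 5 they moved to 706 (WT primitive endoderm), 172 (both), 279, 248 and 45 (epiblast) and 24 (opposite). With an 8-fold minimum they moved to 615, 583 and 133 for primitive endoderm, 65 for epiblast in both and 33 opposite, and with a 2-fold minimum to 452 for primitive endoderm in both and 160 opposite. Without the overlap rule they moved to 1424 and 394 for primitive endoderm in KO and both, 1199, 823 and 273 for epiblast and 282 opposite. Primitive endoderm counts moved under scaling to 161 in both (quantile), 579 in KO and 155 in both (median ratio), and 673, 565 and 140 (same sum). Leaving out 1 cell gave 1055 to 1123, 892 to 1508 and 255 to 379 for primitive endoderm, 600 to 685, 421 to 706 and 97 to 148 for epiblast and 82 to 182 opposite; fewer cells make separation easier, and the WT primitive endoderm cell could not be left out. Among the genes described, a pseudocount of 5 ended the WT calls of Cubn, Grb10, Kif20a, Klf4, Nodal and Ttk. It also ended the KO calls of Fgf3 and Tfrc. Quantile normalization ended the WT calls of Cdk1, Ctsa, Hexa, Kif20a, Lamc1, Lin28a and Ttk. In KO it ended those of Bub1, Ctsl, Kif20a, Mdm2, P4hb and Tfrc. Median ratio scaling ended the WT calls of Cdk1, Hexa and Kif20a and the KO calls of Bub1, Ctsl, Kif20a and Mdm2. With the log ratio of mean FPKM, Grb10, Hexa, Kif20a and Lin28a lost WT calls and Bub1 and Klf4 KO calls. Other settings moved none of the counts of genes above by over 1.5 times. The median of the visceral endoderm markers in KO ranged from -0.0014 (without KO primitive endoderm cell 2) to 1.22 when 1 cell was left out, against 1.21 with all cells; the cause was not tested.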
